A study of Mus musculus with 2 samples.

Results

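Weak CTCF sites called in both embryonic stem cells and neural precursor cells were taken as the autosomal peaks of the 2 lists that overlapped 1-to-1 by at least 1 bp and whose score, the value the authors gave each peak, lay in the lowest 25% of its own list on both sides. There were 2091 such pairs among 38591 autosomal 1-to-1 pairs, drawn from 54151 ESC peaks and 51421 NPC peaks. The members were thus chosen by measured values, their score and their overlap. The limits were scores of 220.8 (ESC) and 183.55 (NPC), and the lowest scores listed were 100.02 and 100.01. For that reason the scores and the counts of overlap below describe the choice and carry no test.

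The study profiled CTCF by chromatin immunoprecipitation and sequencing in 2 mouse samples. One was the E14 embryonic stem cell line (ESC; E14Tg2A, IB10 cells), grown in serum with leukemia inhibitory factor, which keeps the cells undifferentiated. The other was neural precursor cells (NPC), which were made from that same stem cell line and cultured in N2-supplemented medium containing basic FGF and EGF. Both used the same anti-CTCF antibody and SOLiD sequencing, neither carries a genetic change or treatment named in the labels, and each cell type was 1 library of 1 line. The spread between cultures is therefore unknown and no test between the cell types was made. Intervals are 95% intervals over peaks, exact binomial (Clopper-Pearson) for shares and from order statistics for medians; they take each peak as independent, so they hold counting error and nothing else.

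CTCF is a zinc-finger protein that binds a long, asymmetric DNA motif and, together with cohesin, marks the ends of many chromatin loops and the borders of topological domains. Strong sites are often occupied in many cell types, whereas weak ones are more often found in some cell types and missed in others. A peak caller lists a site only above a calling limit, so a weak site sits near the line between being listed and being missed. Positions are given on mm9. No sequence or gene position of that build was used here, so pairs are named by position and neither the CTCF motif nor nearby genes were examined.

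A minority of the weak peaks of each list paired with a weak peak of the other. Of 13053 weak autosomal ESC peaks, the 2091 members made up 16.0% (15.4 to 16.7), a further 3059 (23.4%, 22.7 to 24.2) paired 1-to-1 with an NPC peak above the lowest 25%, 27 overlapped in another way, and 7876 (60.3%, 59.5 to 61.2) overlapped no NPC peak. Over all autosomal ESC peaks 74.2% overlapped an NPC peak of any score, and 6230 of 52656 paired 1-to-1 with a weak one. Of 12499 weak autosomal NPC peaks, members made up 16.7% (16.1 to 17.4), 4139 (33.1%, 32.3 to 33.9) had an ESC partner above the lowest 25%, 147 overlapped in another way, and 6122 (49.0%, 48.1 to 49.9) overlapped no ESC peak. Over all autosomal NPC peaks 78.5% overlapped an ESC peak of any score, and 5150 of 50195 paired 1-to-1 with a weak one. Members were 5.42% of all autosomal 1-to-1 pairs, a share that depends on the limits chosen and carries no test.

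A weak peak with a partner usually had a partner of low or middling score. Among the 5150 pairs whose ESC peak was weak, the NPC peak was in the lowest 25% of its list in 40.6% (39.3 to 42.0), where 16.1% of all pairs had an NPC peak that low. It was between the 25th and 50th percentile in 36.6%, between the 50th and 75th in 19.1% and above that in 3.77%. Among the 6230 pairs whose NPC peak was weak, the ESC peak was in the lowest 25% in 33.6% (32.4 to 34.8), against 13.3% of all pairs, between the 25th and 50th percentile in 38.5%, between the 50th and 75th in 23.0% and above that in 4.88%. Peaks that were weak in one cell type and among the top 10% in the other were rare, with 36 NPC partners (0.70%) and 58 ESC partners (0.93%). By definition that level holds 10% of all peaks of a list.

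Within the lowest 25%, the share of members changed less with score than the other shares did. The weak autosomal peaks of a list were split into 10 equally large bins of rising score. In ESC the member share was 13.7% (11.9 to 15.7) in the lowest bin, with scores up to 107, and 16.9% (14.9 to 19.1) in the highest, with scores of 203 to 221, and it peaked in the bin below that at 18.9% (16.8 to 21.1), above the interval of the lowest bin. In NPC it was 16.2% (14.2 to 18.3) in the lowest bin and 17.4% (15.3 to 19.6) in the highest. The rest changed more: from the lowest to the highest bin, unshared ESC peaks went from 71.5% to 48.3% and ESC peaks with a partner above the lowest 25% from 14.5% to 34.6%. The NPC list went from 58.1% to 39.9% unshared and from 24.2% to 41.9% with such a partner.

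**Figure D1:**
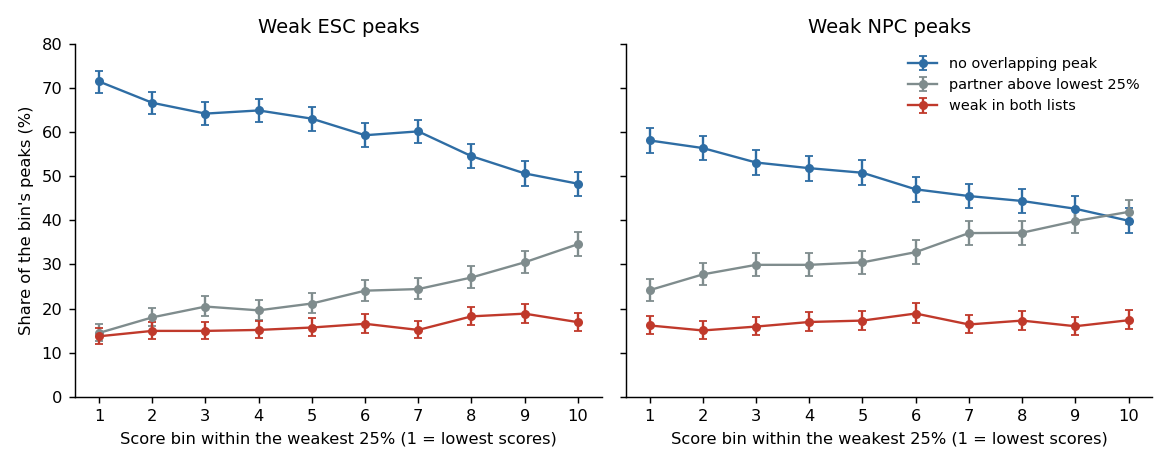
Share of weak autosomal peaks (y, percent) that paired with a weak peak, paired with a peak above the lowest 25%, or had no overlapping peak, by score bin (x, 1 to 10) in the ESC list (left) and the NPC list (right), with bars for 95% exact binomial intervals. The line of peaks weak in both lists stays between 13.7% and 18.9% in ESC and between 15.04% and 18.9% in NPC, while the unshared share falls.

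Members covered the whole allowed range of scores on both sides. Their ESC scores ran from 100.03 to 220.75 with a median of 151 (interquartile range 124 to 184.4), and their NPC scores from 100.01 to 183.55 with a median of 135 (117 to 157). The ESC score of a pair said little about its NPC score: across the 2091 pairs Spearman's rho was 0.05, against 0.62 over all 38591 autosomal pairs. Cutting both scores to a narrow range lowers such a correlation, and peaks are not replicates, so both values are descriptions. Unshared weak peaks scored slightly lower than members, with medians of 142 in ESC and 130 in NPC, and weak peaks with a partner above the lowest 25% slightly higher, at 158 and 140.

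**Figure D2:**
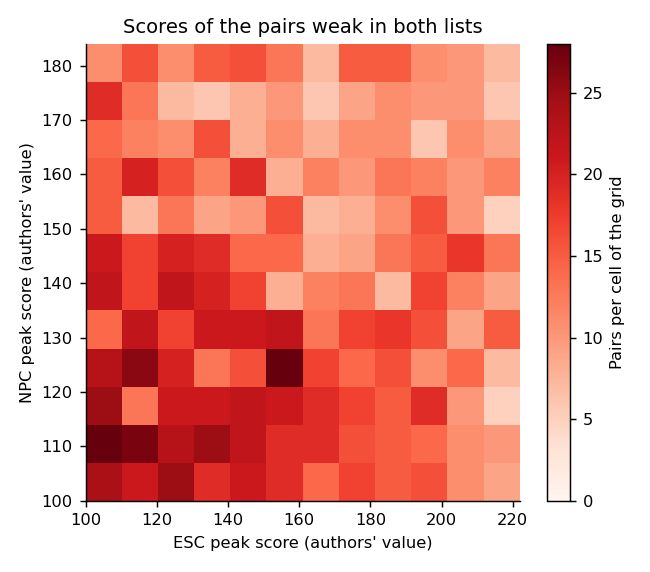
Number of member pairs (colour) by ESC score (x) and NPC score (y), both the authors' values. Pairs are most frequent where both scores are low, and no diagonal is seen (rho 0.05 over 2091 pairs).

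The weakest pairs in both lists, ranked by the worse of the 2 within-list percentiles, reached the bottom 1.5% of both lists. The first lay on chromosome 12, with the ESC peak at 86415804 to 86416100 (score 103) and the NPC peak at 86415926 to 86416164 (score 100.03), and its centres were 93.0 bp apart. The next lay on chromosome 10 at 83945835 to 83946183 in ESC (score 103) with an NPC peak of score 100.05 and centres 72.5 bp apart. The others were on chromosome 8 at 109263136 to 109263429 (41.5 bp apart), chromosome 10 at 121275708 to 121276184 (21.0 bp) and chromosome 13 at 21978354 to 21978706 (51.5 bp). Each score was within 5 units of the lowest score listed. The choice itself required overlap, and all 5 pairs had centres under 100 bp apart, where 95% of all autosomal 1-to-1 pairs had centres within 100 bp.

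At the upper limit, the pairs just inside and just outside the threshold differed by less than 1 score unit on the side that decided them. Just inside were pairs on chromosome 18 (NPC score 183.55), chromosome 2 (ESC score 220.75), chromosome 10 (220.68), chromosome 15 (220.65) and chromosome 13 (220.63). Just outside were pairs on chromosome 17 (ESC score 220.86), chromosome 3 (NPC score 183.71), chromosome 7 (220.91), chromosome 8 (220.91) and chromosome 4 (220.93). Centre distances were 5.5 to 39.0 bp among the 5 inside and 3.5 to 87.0 bp among the 5 outside.

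The centres of paired weak peaks lay as close together as those of strong ones. The centres of a member's ESC and NPC peaks lay a median of 31.0 bp apart (30.0 to 32.5; interquartile range 15 to 54.2). The 2447 pairs in the top 10% of both lists had a median of 33.0 bp (31.5 to 34.5), and all 36500 other 1-to-1 pairs a median of 32.0 bp (31.5 to 32.5). Centres lay within 50 bp of each other in 1494 members (71.4%, 69.5 to 73.4), against 71.0% of all autosomal pairs, and within 100 bp in 2007 (96.0%, 95.1 to 96.8), against 95%. Only 5 members had centres more than 200 bp apart, and the largest distance was 382 bp. The mean of the 2 widths, about the largest centre distance at which 2 peaks still overlap, had a median of 360 bp. How close the centres would lie from overlap alone was not tested. Neither list's centres were shifted along the chromosome relative to the other's among members, with a median signed offset of 0 bp.

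Centre distance was similar down to the weakest pairs. With members divided into 3 groups of 697 by the worse of their 2 percentiles, the median centre distance was 32.0 bp (29.5 to 35.0) in the weakest group, 30.5 bp (28.5 to 32.5) in the middle group and 30.5 bp (27.5 to 34.0) in the group nearest the limit. The intervals overlapped. Over the 19 autosomes the median for members ranged from 25 bp on chromosome 3 to 38.0 bp on chromosome 19. Relative to peak width the members were less tightly matched than strong pairs, because their peaks were narrower: the centre distance was a median of 8.72% of the mean width in members and 4.58% in pairs of the top 10%.

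**Figure D3:**
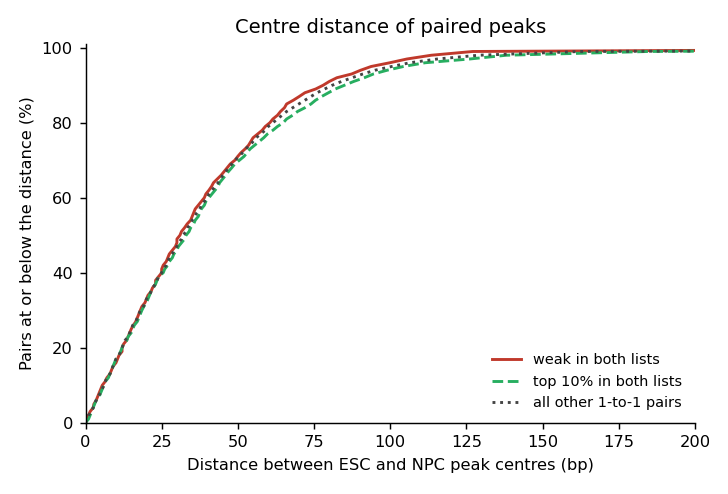
Cumulative share of pairs (y, percent) by the distance between ESC and NPC peak centres (x, bp) for pairs weak in both lists, pairs in the top 10% of both lists and all other 1-to-1 pairs. The curves run together, with medians of 31.0, 33.0 and 32.0 bp.

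Member peaks were narrow, as weak peaks were in general. Their median width was 413 bp (408 to 418) in ESC and 307 bp (303 to 310) in NPC, while peaks of the top 10% had medians of 774 bp and 615 bp. Among members the ESC width ran from 186 to 1115 bp and the NPC width from 140 to 824 bp. Unshared weak peaks had medians of 402 bp (400.0 to 405) in ESC and 305 bp (303 to 308) in NPC. The ESC intervals did not overlap, but width rose with score (Spearman's rho across members 0.44 in ESC and 0.37 in NPC) and members scored higher. With the unshared peaks weighted to the members' score bins, their median width was 412 bp in ESC and 310 bp in NPC, within the members' intervals. A wider peak also overlaps more readily, so that width is not independent of the choice.

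Within a pair the ESC peak was the wider one in 1803 of 2091 members (86.2%), close to the 87.4% of all autosomal pairs. The median ratio of ESC to NPC width was 1.33 in members, 1.31 over all pairs and 1.22 in pairs of the top 10%. The NPC peak lay wholly inside the ESC peak in 1292 members (61.8%), less often than in all autosomal pairs (70.9%). The ESC peak lay inside the NPC peak in 104 members (4.97%), against 5.37% of all autosomal pairs. The overlap had a median of 292 bp and covered at least 50% of both peaks in 1990 members (95.2%), against 93.1% of all autosomal pairs. Widths of the paired peaks were weakly related across members (rho 0.19), less than over all pairs (0.51). Pairs weak in 1 list only had similar values, 0.21 for those weak in ESC and 0.18 for those weak in NPC. Width rose with score, so cutting the scores to a narrow range can lower this rho too. How far it does so was not tested.

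In the ESC list the members lay farther from strong sites than unshared weak peaks did. A strong site was a peak in the top 10% of the same list, with a score of at least 1514 in ESC and 1396 in NPC, and distance was taken between centres. The median distance was 116 kb (107 to 126) for members and 94.6 kb (90.7 to 99.8) for the 7876 unshared weak ESC peaks, a ratio of 1.23 (1.07 to 1.39, from the ends of both medians' intervals). All autosomal ESC peaks outside the top 10% had a median of 97.0 kb. A strong site lay within 5 kb of 76 members (3.63%, 2.87 to 4.53) and of 5.49% (4.99 to 6.01) of unshared weak peaks, against 5.55% of all peaks outside the top 10%. Within 20 kb it was 314 members (15.02%, 13.5 to 16.6) against 18.1% (17.2 to 18.9), with 18.0% over all such peaks, and within 100 kb it was 970 members (46.4%, 44.2 to 48.6) against 51.1% (50.0 to 52.3), with 50.7% over all. Within 500 kb it was 1708 members (81.7%, 79.96 to 83.3) against 85.6% (84.8 to 86.4), with 85.4% over all. The difference held along the distribution, with a 90th percentile of 890 kb for members and 714 kb for unshared weak peaks. By chromosome, members had the longer median distance on 17 of 19 autosomes, the exceptions being chromosomes 2 and 17.

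The longer distance was also seen at the other paired weak ESC peaks. Weak ESC peaks whose NPC partner was above the lowest 25% had a median distance of 117 kb (109 to 128), nearly that of the members. With unshared peaks weighted to the members' score bins their median stayed at 94.5 kb. Peak density moved with the difference: members had a median of 30 other ESC peaks within 500 kb on either side (29 to 31) and unshared weak peaks 33 (33 to 34). When unshared peaks were weighted to the members' distribution of this density, their median distance was 115 kb and the ratio 1.01. With only those unshared peaks counted that had no NPC peak within 1 kb, their median was 103 kb, the ratio was 1.13 and its range, 0.995 to 1.296, included 1.

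In the NPC list the medians and the shares at short range were close, and members lay farther only in the upper part of the distribution. The median distance to a strong NPC site was 130 kb (120 to 142) for members and 127 kb (120.3 to 133) for unshared weak NPC peaks, a ratio of 1.03 with a range of 0.897 to 1.18. It was 129 kb (121 to 138) for weak NPC peaks with a partner above the lowest 25%. All autosomal NPC peaks outside the top 10% had a median of 118 kb (115 to 121). A strong site lay within 5 kb of 85 members (4.07%, 3.26 to 5.002) and of 4.39% (3.89 to 4.94) of unshared weak peaks, against 5.44% of all peaks outside the top 10%. Within 20 kb it was 315 members (15.1%, 13.6 to 16.7) and 14.6% (13.7 to 15.5), against 16.6%, and within 100 kb 933 members (44.6%, 42.5 to 46.8) and 44.7% (43.5 to 46.0), against 46.4%. At long range the values parted: within 500 kb it was 1610 members (77.0%, 75.1 to 78.8) and 79.4% (78.4 to 80.4), against 80.1%, with overlapping intervals. The 75th percentile was 441 kb for members and 400.3 kb for unshared weak peaks, and the 90th percentile 1293 kb and 994 kb. Members had the longer median on 10 of 19 autosomes. Members and unshared weak NPC peaks each had a median of 28 other NPC peaks within 500 kb. Whether the ESC and NPC ratios differ was not tested, since each rests on 1 library.

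**Figure D4:**
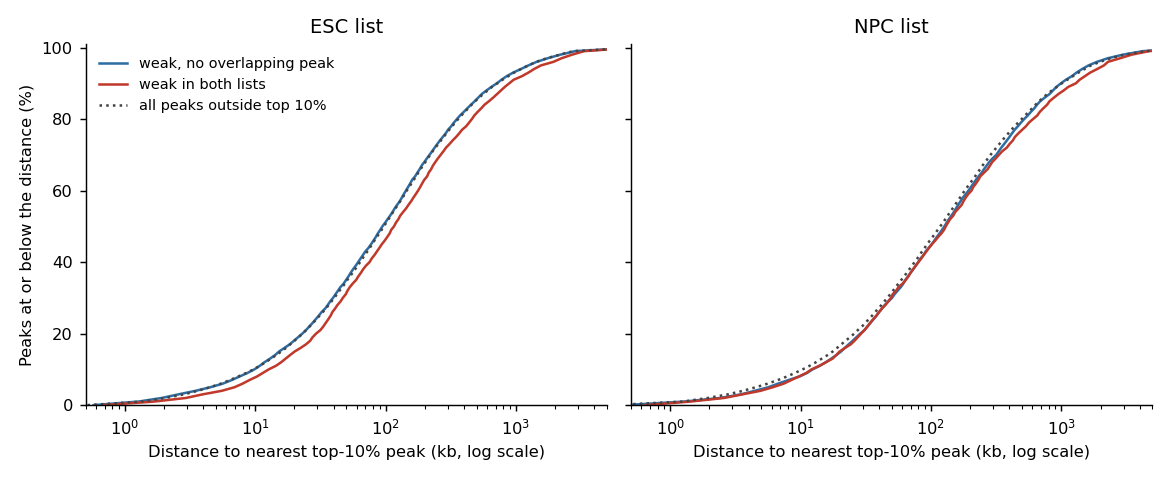
Cumulative share of peaks (y, percent) by distance to the nearest peak of the top 10% of the same list (x, kb, log scale) in ESC (left) and NPC (right). In ESC the curve of members lies to the right of that of unshared weak peaks (medians 116 and 94.6 kb), and in NPC the curves run together up to about the median (130 and 127 kb) and part above it (90th percentiles 1293 and 994 kb).

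Set against the strong sites of the other list, members and unshared peaks had overlapping intervals. Members lay 130 kb (120 to 142) from the nearest strong NPC site when measured from their ESC centre, and unshared weak ESC peaks 123 kb (118 to 130). Measured from their NPC centre to strong ESC sites, members lay 116 kb away (107 to 126) and unshared weak NPC peaks 128 kb (121 to 134). To the 2447 sites in the top 10% of both lists the distance was 268 kb (236 to 293) for members, 247 kb (238 to 258) for unshared weak ESC peaks and 273 kb (258 to 287) for unshared weak NPC peaks. None of these intervals separated members from unshared peaks.

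Divided by peak density into 3 groups, the ESC list placed more of its members in sparse regions. Of the members, 847 (40.5%) had at most 24 other ESC peaks within 500 kb, as had 33.0% of unshared weak ESC peaks. In those sparse regions the distance to a strong site was 406 kb (356 to 452) for members and 346 kb (328 to 374) for unshared peaks. In the middle group it was 84.0 kb (73.8 to 94.8) and 90.8 kb (85.7 to 97.5), and in dense regions, with at least 43 neighbours, 41.1 kb (37.6 to 46.0) and 40.6 kb (37.9 to 42.7). Members and unshared peaks thus had overlapping intervals within each density group. In NPC the sparse regions, with at most 23 neighbours, held 39.7% of members and 39.4% of unshared weak peaks, and there members lay 541 kb (481 to 599) and unshared peaks 453 kb (423 to 486) from a strong site, again with overlapping intervals.

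The members closest to a strong site lay beside it within 1 kb. On chromosome 14 the member with the ESC peak at 31424985 to 31425469 (score 181) and an NPC score of 138 was 0.646 kb from a strong NPC site, while the nearest strong ESC site was 37.7 kb away. On chromosome 11 the member at 70568389 to 70568911 had a strong site at 0.685 kb in ESC and 0.664 kb in NPC. On chromosome 8 the member at 125633796 to 125634229 was 0.796 kb and 0.724 kb from strong sites, whereas that at 74796965 to 74797378 was 12.0 kb from a strong ESC site and 0.734 kb from a strong NPC site. The fifth, on chromosome 9 at 120492389 to 120492922, was 18.1 kb and 0.766 kb away. In 3 of these 5 members the nearby site was thus strong in NPC only.

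The members farthest from any strong site had none for more than 3 Mb. The first lay on chromosome 4 at 77972671 to 77972999, 4607 kb from a strong ESC site and 4095 kb from a strong NPC site. The others were on chromosome 18 at 90618721 to 90619121 (3892 and 5913 kb), chromosome 4 at 15847571 to 15848006 (3680 kb in each list), chromosome 1 at 30201822 to 30202310 (3539 and 4439 kb) and chromosome 16 at 71197901 to 71198198 (3421 and 3604 kb). Their centre distances ran from 2.5 to 72.0 bp, and those of the 5 members nearest to a strong site from 14 to 51.5 bp.

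Another ESC peak lay within 1 kb of 98 members (4.69%, 3.82 to 5.68) and of 493 unshared weak ESC peaks (6.26%, 5.73 to 6.82). In NPC it was 82 members (3.92%, 3.13 to 4.84) and 373 unshared weak peaks (6.09%, 5.51 to 6.72). Over all autosomal peaks outside the top 10% the share was 4.93% (4.74 to 5.13) in ESC, near that of members, and 5.96% (5.75 to 6.19) in NPC. The members' shares are set in part by the 1-to-1 condition, which leaves out peaks that share a partner with a neighbour. Over all overlapping weak peaks, 1-to-1 or not, the share was 4.56% (4.01 to 5.16) in ESC and 5.86% (5.30 to 6.47) in NPC, so that in NPC it was near that of unshared weak peaks. The median distance to the nearest other peak was 10.9 kb (10.0 to 11.7) for members and 8.58 kb (8.23 to 8.91) for unshared weak peaks in ESC, and 11.4 kb (10.7 to 12.5) and 10.6 kb (10.1 to 11.1) in NPC. Over all autosomal peaks outside the top 10% it was 8.63 kb in ESC and 9.22 kb in NPC.

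The peaks on either side of a member were shared about as often as all autosomal peaks, and those beside an unshared weak peak less often. Of the flanking ESC peaks of members 8.92% were in the top 10% and 25.9% were weak, where all autosomal ESC peaks gave 10.3% and 24.8%. For unshared weak peaks the values were 9.62% and 26.8%. In NPC 8.88% of the members' flanking peaks were in the top 10%, against 10.2% of all autosomal peaks. An NPC peak overlapped 74.7% of the members' flanking ESC peaks, close to the 74.2% of all autosomal ESC peaks, and 69.1% of those beside unshared weak peaks. In NPC the shares were 78.8% beside members and 72.3% beside unshared weak peaks, with 78.5% over all autosomal NPC peaks. Beside weak peaks with a partner above the lowest 25% the shares were higher than beside members, at 78.9% in ESC and 81.4% in NPC. Members made up 4.69% of the members' flanking peaks in each list, against 3.97% of all autosomal ESC peaks and 4.17% of all autosomal NPC peaks. In ESC, 191 members (9.13%, 7.93 to 10.5) had another member next to them, against 7.69% (7.12 to 8.30) of unshared weak ESC peaks, and the nearest other member lay a median of 313 kb away (287 to 336).

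Members were found on every autosome, from 65 on chromosome 18 to 168 on chromosome 11. As a share of weak ESC peaks they were most frequent on chromosome 15 (20.4%, 17.1 to 23.9), chromosome 3 (19.1%, 16.2 to 22.4) and chromosome 14 (18.1%, 14.9 to 21.8), and least frequent on chromosome 12 (13.1%, 10.4 to 16.2), chromosome 5 (13.7%, 11.6 to 16.1) and chromosome 1 (14.4%, 12.2 to 16.8). As a share of weak NPC peaks they were most frequent on chromosome 19 (19.7%, 15.6 to 24.3), chromosome 3 (19.4%, 16.4 to 22.7) and chromosome 11 (18.9%, 16.4 to 21.7), and least on chromosome 5 (13.8%, 11.7 to 16.2), chromosome 12 (13.9%, 11.04 to 17.1) and chromosome 8 (15.1%, 12.4 to 18.1). Chromosomes 5 and 12 were thus low and chromosome 3 high in both lists, but both shares count the same pairs and are not independent. The interval left out the share of the whole list on chromosomes 15 and 3 in ESC and on chromosome 5 in NPC, and on none of the others in either list. From the score bins alone 16.1%, 16.0% and 16.7% would be members on these 3. With 19 intervals per list at a level of 95%, some can leave out that share even where no chromosome differs. Whether these 3 exceed that number was not tested.

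Chromosome 15, where unshared ESC peaks were few, did not hold more members among its NPC peaks. Its 114 members were 20.4% of 560 weak ESC peaks but 16.5% (13.8 to 19.4) of 693 weak NPC peaks, near the 16.7% of the whole NPC list. Unshared peaks were 42.3% of its weak ESC peaks and 64.5% of its weak NPC peaks, against 60.3% and 49.0% over all autosomes. The members there lay a median of 126 kb from a strong ESC site and 45.3 kb from a strong NPC site. Unshared weak ESC peaks of that chromosome lay 75.04 kb from a strong ESC site, nearer than the members. Its unshared weak NPC peaks lay 47.5 kb from a strong NPC site, close to the value for members. The short distance in NPC was thus not particular to members.

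**Figure D5:**
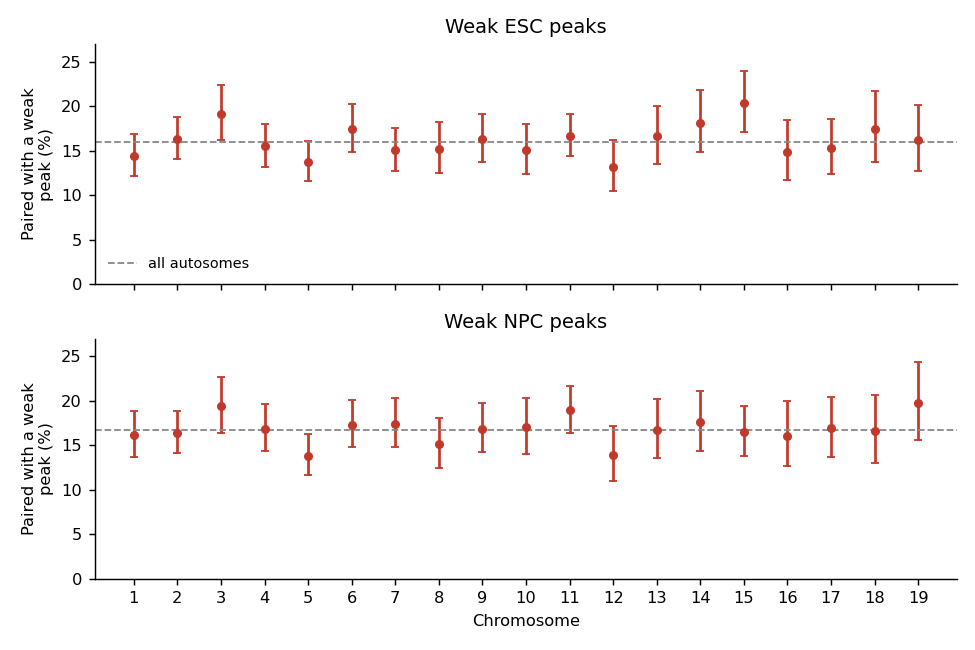
Share of weak ESC peaks (top) and weak NPC peaks (bottom) that were members (y, percent) on each autosome (x), with 95% exact binomial intervals and a dashed line at the share over all autosomes (16.0% and 16.7%). Most intervals span the line; chromosomes 15 and 3 in ESC lie above it and chromosome 5 in NPC below it.

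The segments of 10 Mb with most members were those rich in weak peaks. Of 258 segments of 10 Mb with a weak peak, 254 held at least 1 member, the median was 7 and the highest 24. The fullest segments were chromosome 4 from 130 to 140 Mb, with 24 members among 156 weak ESC and 124 weak NPC peaks, chromosome 11 from 70 to 80 Mb, with 23 among 125 and 96, and chromosome 11 from 110 to 120 Mb, with 22 among 103 and 122. Members were 15.4% (10.1 to 22.02), 18.4% (12.0 to 26.3) and 21.4% (13.9 to 30.5) of the weak ESC peaks there, so that each interval included the 16.0% of all autosomes. In NPC the shares were 19.4% (12.8 to 27.4), 24.0% (15.8 to 33.7) and 18.0% (11.7 to 26.0), and each interval included 16.7%.

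In few segments did the interval leave out the share of the whole list. This was so in 12 of 258 segments in ESC (9 above, 3 below) and in 12 of 258 in NPC (7 above, 5 below). At a level of 95%, some intervals leave out that share even where no segment differs. Whether 12 of 258 exceeds that number was not tested. The interval left it out on the same side in both lists in 4 segments, which were picked after their values were seen. The members of a segment are the same pairs in both lists, so its 2 shares are not independent of each other. Chromosome 2 from 130 to 140 Mb held 18 members, which were 32.7% (20.7 to 46.7) of its weak ESC peaks and 31.0% (19.5 to 44.5) of its weak NPC peaks. Chromosome 13 from 100 to 110 Mb held 15 (34.1%, 20.5 to 49.9, and 32.6%, 19.5 to 48.0), and chromosome 18 from 20 to 30 Mb held 13 (30.2%, 17.2 to 46.1, and 32.5%, 18.6 to 49.1). Below the list was chromosome 18 from 70 to 80 Mb, with 1 member among 45 weak ESC peaks (2.22%, 0.0562 to 11.8) and 47 weak NPC peaks (2.13%, 0.0539 to 11.3).

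On the scale of 1 Mb most windows with a member held 1. Of 2342 windows with a weak peak, 1256 held members, 728 of them exactly 1, and 21 windows held 5 or more. The fullest was chromosome 7 from 52 to 53 Mb with 7 members, which were 7 of 25 weak ESC peaks (28.0%, 12.1 to 49.4) and 7 of 22 weak NPC peaks (31.8%, 13.9 to 54.9). Next came chromosome 3 from 30 to 31 Mb, where 6 of 15 weak ESC peaks (40%, 16.3 to 67.7) and 6 of 8 weak NPC peaks (75%, 34.9 to 96.8) were members, and chromosome 3 from 95 to 96 Mb. There 6 members stood among 23 weak ESC peaks (26.1%, 10.2 to 48.4) and 14 weak NPC peaks (42.9%, 17.7 to 71.1). The count of members chose these windows, and 5 windows in all held 6 or more.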

How the data were processed

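The data were 2 peak lists on mm9, per the submitters' processing notes, 1 for each of 2 libraries. MACS made each list, per the file headers. Not given in the sources used here are its version, threshold and control and the aligner. Both track names end in CONTROL, which the files do not explain. The only measurement is the score per peak that the authors deposited; its definition is not stated, so it was used for ranks within a list. The lists give no read counts, so the depth is unknown.

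Overlap, 1-to-1 pairing, distances and shares were computed in Python 3.11.15 with numpy 2.4.6, pandas 2.3.3 and scipy 1.17.1, with plots by matplotlib 3.10.9. The overlap counts equalled those of bedtools 2.31.1 (39052 ESC and 39424 NPC autosomal peaks). Pairing, membership, distances and peak density were tested on artificial pairs, made by shifting well-spaced ESC peaks. The other steps were not tested in this way, nor were closely spaced peaks. Percentiles ran over whole lists, sex chromosomes included. Unshared weak peaks were compared as they are and weighted to the members over 10 score bins. The members, comparisons and alternatives were chosen with earlier results of these data known. Named pairs followed a fixed rule: the 5 weakest, the 5 on either side of the threshold, the 5 nearest to and the 5 farthest from a strong site, the 3 highest and lowest chromosomes per list, and the 3 fullest segments and windows, with ties broken by position. A search for the CTCF motif was planned and not made, because no mm9 genome was used here.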

Additional observations from a re-analysis of the deposited data

Results flagged for a closer look

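Chromosome X lies outside the autosomal choice, and weak pairs were found there too. By the same rule 75 of its 1004 1-to-1 pairs (7.47%) were weak in both lists, against 5.42% of autosomal pairs. Low scores were also more frequent there. On chromosome X 32.4% of peaks were weak in ESC and 29.4% in NPC, against 24.8% and 24.9% over the autosomes. How far this accounts for the higher share of pairs was not tested. The 75 pairs were 15.5% (12.4 to 19.1) of 483 weak ESC peaks and 20.8% (16.7 to 25.3) of 361 weak NPC peaks on that chromosome. Their centres lay a median of 27 bp apart. Only 6 ESC and 10 NPC peaks of chromosome X were in the top 10%, and the weak pairs lay a median of 11262 kb from a strong ESC site and 5016 kb from a strong NPC site. These distances were not compared with those of unshared weak peaks on chromosome X.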

How the results depend on the processing

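The number of weak pairs was 302 with the lowest 10% of each list and 5717 with the lowest 40%, which follows from the width of the limit; members then made up 5.78% and 27.5% of weak ESC peaks and 6.03% and 28.6% of weak NPC peaks. With 50% reciprocal overlap these shares were 15.3% and 15.9%, and unshared then includes peaks that overlap by less; the ratio of member to unshared median width in NPC was 1.05 there, against 1.01. The ESC width ratio went from 1.03 to 1.002 with unshared peaks weighted by score bin. The ESC ratio of distances to a strong site, 1.23, was 1.43 with the lowest 10% of each list, where its range was 1.01 to 1.88, and the NPC ratio, 1.03, was 1.21 there. Alternatives added after seeing the data gave ESC ratios of 1.01 with unshared peaks weighted by peak density and 1.05 with strong sites of the other list. From score bins alone the member shares on chromosomes 15 and 3 in ESC and 5 in NPC would be 16.1%, 16.0% and 16.7%. Where no construction is named, the cause was not tested. The other 41 of 58 values recomputed, with centres within 100 bp, percentiles over autosomes, other limits for strong sites, segments of 5 Mb or without chromosome 15 among them, stayed inside the interval of their main value or, for counts, within 1.5 times it; the NPC distance ratio changed sides of 1 among these, from 0.911 with strong ESC sites to 1.09 with the lowest 40%. No paired analysis was possible because each cell type has 1 library, and no library could be left out. The settings for the motif were not run. The depth is unknown, so an unshared peak can be a site that was missed near the calling limit of the other list.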

Other observations

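Some weak peaks overlapped the other list without a single partner and so were not members. There were 27 such ESC peaks and 147 NPC peaks. All 147 NPC peaks had another NPC peak within 1 kb, at a median distance of 0.491 kb. Such a neighbour is largely set by the choice, because peaks that share a partner with a neighbour fall into this group. Of the 147, 32 (21.8%, 15.4 to 29.3) lay within 5 kb of a strong NPC site, against 4.07% of members. Over all autosomal NPC peaks outside the top 10% the share was 5.44%. The 21.8% is not independent of the choice either, since the neighbour can itself be a strong site. Of the unshared weak peaks, 366 in ESC (4.65%) and 275 in NPC (4.49%) had a peak centre of the other list within 1 kb, and the median distance to the nearest peak of the other list was 10.7 kb and 11.6 kb.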
